A study of Homo sapiens with 8 samples.

Results

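Lactate and pyruvate handling was followed through 10 genes after loss of PTBP1 in leukemia cells. They are LDHA, LDHB, SLC16A1, SLC16A3, BSG, MPC1, MPC2, PDHA1, PDHB and GLO1. They were taken by name from the 62639 genes to which the counted transcripts belong, of which 16474 had a count. RNA came from MOLM-13, a human acute myeloid leukemia cell line, transduced with lentivirus. With doxycycline (dox) the cells made either an shRNA that targets PTBP1 (shPTBP1) or a scrambled control shRNA (shSCR). Both groups carried the same kind of construct, which also makes mCherry at all times and the surface receptor ΔLNGFR with dox, and both were treated with dox for 9 days, with 4 biological replicates each. These libraries came from 1 shRNA against PTBP1 and 1 scrambled shRNA in a single cell line, so other differences between the cells carrying them cannot be told apart from PTBP1 KD. Long nanopore reads of cDNA were counted per annotated transcript, with 1528449 to 1613342 counts per library.

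Pyruvate, the end product of glycolysis, can leave the glycolytic route in several ways. Lactate dehydrogenase turns it into lactate in the cytosol, and monocarboxylate transporters of the plasma membrane carry the lactate out of the cell together with a proton. Alternatively, the mitochondrial pyruvate carrier brings pyruvate to the pyruvate dehydrogenase complex, which makes acetyl-CoA for the citric acid cycle. Glyoxalase 1 belongs to a side path that removes methylglyoxal, a toxic by-product of glycolysis, and ends in D-lactate. PTBP1 itself is a splicing regulator that binds pyrimidine-rich RNA.

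PTBP1 served as the check of the labels. It had 10, 15, 13 and 23 counts in shPTBP1 replicates 1 to 4 and 65, 90, 64 and 78 in shSCR, a ratio of 0.203 (95% counting interval 0.151 to 0.268). Of 11 myeloid marker genes 9 had counts in every library, SPI1 had at most 1 count, and 12 of 14 markers of other cell types had at most 3 counts in any library. The exceptions among the latter were the collagen gene COL1A2, with 11 to 18 counts, and COL1A1, with at most 4. The summed level of the 11 myeloid markers was 875 to 1054 CPM in shPTBP1 and 715 to 838 CPM in shSCR, so this sum differed between the groups without overlap. It was carried mostly by CD68 and LYZ, and the 2 markers of the list called in edgeR went in opposite directions, CD68 with a log2 fold change of 0.36 (adjusted p = 0.0193) and CSF1R with -0.97 (adjusted p = 0.0376). Levels are given as normalized CPM, the count per 1000000 counts of the library after edgeR's TMM scaling.

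Of the 10 genes, 9 passed the filter on low counts and were tested in the fit over 7597 genes. At an adjusted p under 0.05 in edgeR's quasi-likelihood test, LDHA and GLO1 were lower in shPTBP1, no gene of the 10 was higher, and 7 did not pass the test. Among all genes tested 3.19% were called lower and 2.36% higher. No further gene of the 10 had an unadjusted p under 0.05, and DESeq2 also called none higher. Their log2 fold changes had a median of -0.04, beside -2.38e-05 over all genes tested, and 6 of the 9 were below 0. LDHA and GLO1 were also the only members whose 8 values fell into groups that did not overlap, a feature of 12.7% of all genes tested (6.37% with shPTBP1 lower and 6.33% with shPTBP1 higher). These are bulk measurements, in which fewer cells of a kind and less RNA per cell cannot be told apart.

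**Figure D1:**
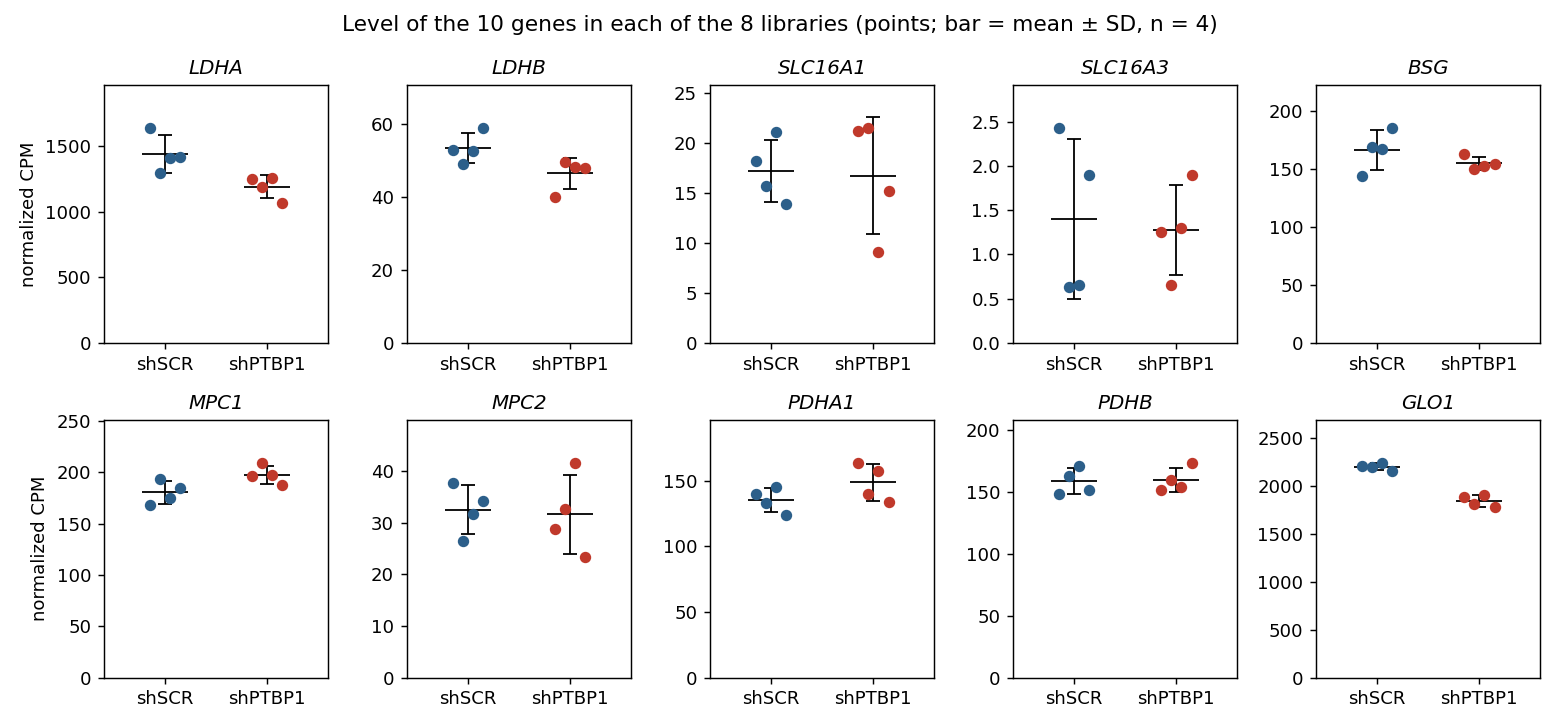
Normalized CPM (y axis, from 0) of each of the 10 genes in each of the 8 libraries, with shSCR in blue and shPTBP1 in red, and bars for the mean ± SD (n = 4). The shPTBP1 points lie below all shSCR points for LDHA (highest 1256 against lowest 1298) and GLO1 (1912 against 2165), and the groups overlap for the other 8 genes.

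The plot of the levels by library shows how unequal the members were in abundance and in spread. GLO1 varied least among replicates, with a coefficient of variation of 3.36% in shPTBP1 and 1.52% in shSCR, and LDHA reached 7.38% and 9.89%. SLC16A1 varied most among the genes tested, with 35.1% and 18.0%. Each level was also divided by the length of the gene's main coding transcript. By this level per kb the order was the same in both groups, namely GLO1, LDHA, MPC1, PDHB, BSG, PDHA1, LDHB, MPC2, SLC16A1 and SLC16A3. The median level of GLO1 was 1094 CPM per kb in shSCR and 918 CPM per kb in shPTBP1, and that of LDHA was 736 and 634 CPM per kb. MPC1 followed with median levels of 184 and 202 CPM per kb, and PDHB with 104 CPM per kb in each group. BSG had 103 and 94.4 CPM per kb, PDHA1 40.7 and 44.3, LDHB 34.3 and 31.3, MPC2 15.1 and 14.1, SLC16A1 4.52 and 4.85, and SLC16A3 0.492 and 0.491. Neighbours in this order had ranges that did not overlap, except PDHB with BSG and PDHA1 with LDHB in shSCR. For LDHB and PDHA1 many counts fell on transcripts of another length, so their places in the order depend on the transcript chosen for the division. The order also depends on the division itself. Undivided, PDHB, BSG and PDHA1 had means of 160, 155 and 149 CPM in shPTBP1 and 159, 167 and 135 CPM in shSCR. Whether counts of these long reads rise with transcript length was not tested, so the order need not be that of molecules.

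LDHA encodes the A (muscle) subunit of lactate dehydrogenase, the form that favours the making of lactate. The gene (ENSG00000134333) lies on the plus strand of chromosome 11 from 18394560 to 18408425 (hg38). Its counts fell almost wholly on 2 coding transcripts with different starts, LDHA-205 (ENST00000422447) and LDHA-203 (ENST00000379412), the latter starting 1715 bases downstream inside the first intron of the former. The 200 bases before each start are shown because the promoters differ. CACGTG, the E-box letters, is in capitals, and it occurs as 2 copies before LDHA-205 (chr11:18394363-18394562, plus strand) and in no copy before LDHA-203 (chr11:18396078-18396277, plus strand):
LDHA-205: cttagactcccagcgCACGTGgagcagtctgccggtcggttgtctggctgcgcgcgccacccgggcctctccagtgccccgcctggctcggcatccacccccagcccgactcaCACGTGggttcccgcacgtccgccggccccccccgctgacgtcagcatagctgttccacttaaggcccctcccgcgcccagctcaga
LDHA-203: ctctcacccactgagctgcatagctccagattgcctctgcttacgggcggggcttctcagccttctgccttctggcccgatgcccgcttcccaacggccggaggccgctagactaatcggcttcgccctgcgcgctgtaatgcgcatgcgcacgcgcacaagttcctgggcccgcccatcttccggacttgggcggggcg
The 6 letters CACGTG, which read the same on both strands, occurred in 8.07% of the windows of this size before the main transcript of the 7597 genes tested. TGTGGT, the core letters of the RUNX1 motif, occurred on either strand in 5.99% of those windows and in none of the windows of the tested members. The windows of BSG and SLC16A1 held 1 copy of CACGTG each, and those of the remaining tested members none. For LDHB this window lies inside the gene, before the short model LDHB-206 that holds most of its counts, and not before the start of its coding transcript. A match is a description of the letters only.

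The first exon of LDHA-203 holds 63 coding bases (chr11:18396548-18396610, plus strand), shown with its start codon in capitals, and the next exon adds 24 more before the start codon of LDHA-205:
LDHA-203 first coding stretch: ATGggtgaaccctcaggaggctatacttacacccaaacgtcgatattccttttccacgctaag
The coding sequence of LDHA-203 is therefore 1083 bases long and that of LDHA-205 996 bases, a difference of 87 bases. Downstream both transcripts share their coding exons, and the last exon of LDHA-205 runs 578 bases further.

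**Figure D2:**
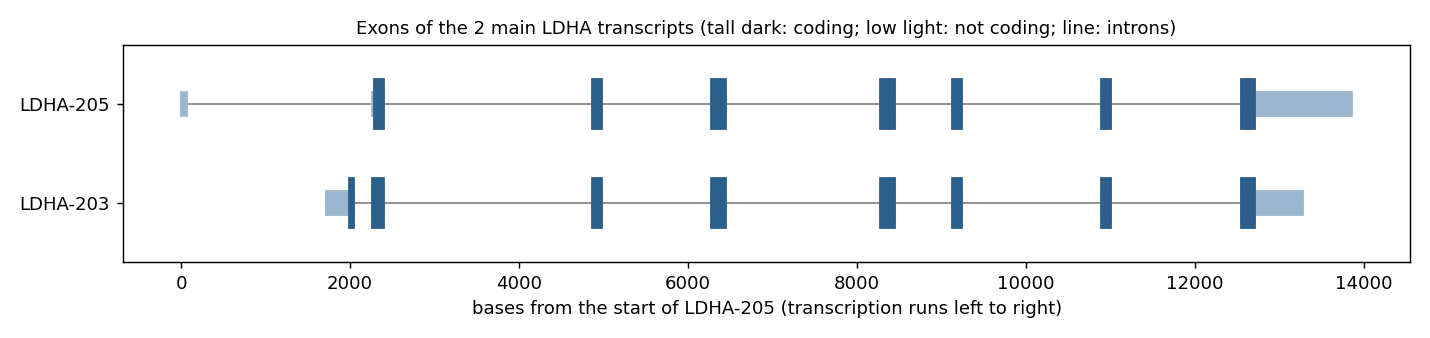
Exon map of LDHA-205 and LDHA-203, with bases from the start of LDHA-205 on the x axis, tall dark boxes for coding and low light boxes for non-coding parts of exons, and lines for introns. LDHA-203 begins 1715 bases downstream in the first intron of LDHA-205, has a coding first exon, and shares the coding exons that follow.

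LDHA was at 1247, 1190, 1256 and 1066 CPM in shPTBP1 replicates 1 to 4 and at 1639, 1298, 1413 and 1416 CPM in shSCR. All 4 shPTBP1 libraries were below all shSCR libraries, with shPTBP1 replicate 4 the lowest and shSCR replicate 1 standing above the other 3. The mean fell from 1441 ± 143 CPM (SD, n = 4) to 1190 ± 87.7, or by 0.28 on the log2 scale (95% interval of the log2 fold change -0.44 to -0.11, SE 0.08, adjusted p = 0.0491 in edgeR). LDHA in shPTBP1 was thus at 82.5% of its shSCR level, with an interval from 73.7% to 92.4%. The call was at the edge of the threshold. It was lost under limma-voom (adjusted p = 0.0556), with DESeq2's size factors in edgeR (0.0509), and without any single library other than shSCR replicate 2, where edgeR's adjusted p ran up to 0.148. The log2 fold change stayed between -0.32 and -0.21 in these 8 fits. Among the myeloid markers CD68 was called higher and CSF1R lower, as given above, and the part of such differences in the results of LDHA and GLO1 was not tested.

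Both LDHA transcripts had fewer counts in shPTBP1. LDHA-203 had 1482, 1404, 1474 and 1297 counts in shPTBP1 and 1999, 1500, 1587 and 1652 in shSCR. LDHA-205 had 505, 412, 451 and 384 in shPTBP1 and 690, 555, 540 and 571 in shSCR. The groups of these raw counts did not overlap for either transcript. After the scaling used for CPM, LDHA-205 stayed apart. LDHA-203 then overlapped, with shPTBP1 replicate 3 above shSCR replicate 2. With the few counts of other transcripts added by their first exon, models with the downstream start took 74.5%, 77.2%, 76.5% and 77.1% of the counts on models with either start in shPTBP1 and 74.3%, 72.9%, 74.2% and 74.2% in shSCR. The groups did not overlap, although the lowest shPTBP1 and the highest shSCR share lay close together, and their means were 76.3% ± 1.24 and 73.9% ± 0.686. These shares rest on counts assigned to annotated transcripts, and LDHA-203 and LDHA-205 also differ in their last exon. Where the reads themselves began was not tested. The share of LDHA-203 itself was 2.48 percentage points higher in shPTBP1 and did not pass edgeR's diffSpliceDGE (unadjusted p = 0.666, adjusted p = 1.00). The share of LDHA-205 was 2.28 percentage points lower, with overlapping groups, and did not pass this test either (unadjusted p = 0.229 in diffSpliceDGE). Among all isoforms tested 10.7% had shares that did not overlap.

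LDHB encodes the B (heart) subunit, the form that favours the turning of lactate back into pyruvate. LDHB (ENSG00000111716, minus strand of chromosome 12 from 21635342 to 21757857) was at 40.0, 49.6, 48.1 and 48.1 CPM in shPTBP1 and at 52.8, 49.1, 52.7 and 58.9 CPM in shSCR. The groups overlapped by 1 library, shSCR replicate 2, which lay between the shPTBP1 libraries. The log2 fold change of LDHB was -0.20 (SE 0.11, 95% interval -0.44 to 0.04, edgeR adjusted p = 0.360), so a change of the size measured for LDHA lies inside this interval. LDHB did not pass the test in any of the 16 alternative fits. Only 18.6% ± 5.38 of the counts of LDHB in shPTBP1 and 18.5% ± 3.50 in shSCR fell on coding transcripts. The rest fell on models annotated as retaining an intron, apart from 1 count in shSCR replicate 3. LDHB-206, with 60.5% ± 7.59 of the counts in shPTBP1 and 63.7% ± 5.07 in shSCR, consists of the last 3 exons and 68 bases of the intron before them. LDHB-210, which overlaps the start of the coding LDHB-203, took 20.8% ± 6.59 and 17.1% ± 4.12, and LDHB-203 itself took 17.3% ± 4.96 and 16.8% ± 4.05. None of the 3 shares differed beyond the spread of the replicates, and whether these counts come from whole molecules was not tested. Gene levels of LDHB therefore rest on 64 to 93 counts per library that are mostly not assigned to a full coding transcript. The ratio of LDHA to LDHB, by level per kb, was 24.9, 19.2, 20.9 and 17.7 in shPTBP1 and 24.8, 21.2, 21.5 and 19.2 in shSCR. The ratios overlapped, with means of 20.7 ± 3.11 and 21.7 ± 2.33, and their size depends on the division by 1922 and 1538 bases.

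SLC16A1 (ENSG00000155380, MCT1) and SLC16A3 (ENSG00000141526, MCT4) encode monocarboxylate transporters, the first with high affinity for lactate and widely expressed, the second typical of cells that export much lactate. SLC16A1, on the minus strand of chromosome 1 from 112911847 to 112957593, had 34, 33, 14 and 24 counts in shPTBP1 and 30, 25, 32 and 22 in shSCR. Its groups overlapped fully, and shPTBP1 replicate 3 was the lowest of the 8 libraries. The log2 fold change of SLC16A1 was -0.04 with an interval from -0.59 to 0.51 (edgeR adjusted p = 0.963), which leaves room for a change to 66.6% or to 143% of the shSCR level. All but 3 of its counts fell on SLC16A1-201 and SLC16A1-203, which differ in their first exon and have the same coding length of 1500 bases. SLC16A1-201 held 71.9% ± 12.4 of the counts in shPTBP1 and 74.3% ± 6.34 in shSCR. The antisense gene SLC16A1-AS1 had 0 to 8 counts per library, and whether the counting used strand was not stated.

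SLC16A3, on the plus strand of chromosome 17 from 82217934 to 82261129, had 2, 1, 2 and 3 counts in shPTBP1 and 4, 1, 1 and 3 in shSCR. With 8 against 9 counts over the 4 libraries of each group it did not pass the filter and was not tested. The ratio of these sums was 0.877, with a counting interval from 0.294 to 2.56, so differences inside this interval could not be detected at this depth. These counts were spread over 5 transcripts, of which SLC16A3-213 had 6 counts in shPTBP1 and 4 in shSCR and SLC16A3-214, SLC16A3-216, SLC16A3-202 and SLC16A3-217 had at most 2 in either group. SLC16A3 thus stood at or near the level of 3 counts, which is 1.86 to 1.96 CPM in these libraries.

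BSG encodes basigin (CD147), the membrane chaperone that MCT1 and MCT4 need to reach the cell surface. BSG (ENSG00000172270, plus strand of chromosome 19 from 571277 to 583494) was at 163, 150, 153 and 155 CPM in shPTBP1 and at 144, 169, 167 and 186 CPM in shSCR. The shPTBP1 libraries lay close together, and shSCR replicate 1 was below all of them while the other 3 shSCR libraries were above. The log2 fold change of BSG was -0.10 (SE 0.08, interval -0.28 to 0.08, edgeR adjusted p = 0.558). Its main transcripts BSG-218, BSG-204 and BSG-203 differ at their starts and at the end of the next-to-last exon. This exon is 65 bases long in BSG-218 and 69 bases in BSG-203, and the 30 bases around its end (chr19:582565-582594, plus strand) are shown with the 4 bases in capitals that only the longer form keeps:
BSG next-to-last exon end: gaactcttcctgagGCAGgtgcggtgggcg
Models with the shorter exon took 63.3%, 58.7%, 56.8% and 60.7% of the BSG counts assigned to models with either form in shPTBP1 and 70.9%, 56.4%, 68.8% and 60.1% in shSCR. These shares overlapped, with means of 59.9% ± 2.77 and 64.0% ± 6.90. All counts of the shorter form were those assigned to BSG-218, and whether the reads themselves cover this end was not tested. BSG-218 and BSG-204 carry a coding sequence of 528 bases and BSG-203 one of 807 bases. BSG-201, which has an additional exon of 348 bases and the longest coding sequence of these at 1155 bases, had 5, 11, 2 and 4 counts in shPTBP1 and 0, 2, 2 and 4 in shSCR. The ratio of SLC16A1 to BSG by level per kb overlapped between the groups, at 0.0468 ± 0.0163 and 0.0456 ± 0.0110. Its size depends on the division by 3753 bases for SLC16A1 and 1630 bases for BSG.

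MPC1 and MPC2 encode the subunits of the mitochondrial pyruvate carrier, which works as a heterodimer in the inner membrane. MPC1 (ENSG00000060762, minus strand of chromosome 6 from 166364919 to 166383013) was at 197, 209.5, 197 and 188 CPM in shPTBP1 and at 169, 194, 175 and 184 CPM in shSCR. Of the shPTBP1 libraries 3 were above all shSCR libraries, and shPTBP1 replicate 4 lay below shSCR replicate 2. Its log2 fold change was 0.13 (SE 0.07, interval -0.02 to 0.28, edgeR adjusted p = 0.339). MPC2 (ENSG00000143158, minus strand of chromosome 1 from 167916675 to 167937072) was at 28.7, 32.6, 41.6 and 23.4 CPM in shPTBP1 and at 37.6, 26.4, 31.6 and 34.2 CPM in shSCR. The shPTBP1 group held both the highest and the lowest MPC2 value of the 8. Its log2 fold change was -0.04 with an interval from -0.43 to 0.35 (edgeR adjusted p = 0.931). Nearly all counts fell on a single coding transcript in each gene, between 98.7% and 100% on MPC1-205 and between 95.8% and 100% on MPC2-202. The ratio of MPC1 to MPC2 by level per kb was 14.5 ± 3.04 in shPTBP1 and 12.7 ± 2.66 in shSCR, with overlapping groups. Its size depends on the division by 977 bases for MPC1 and 2177 bases for MPC2. Undivided, the means of MPC1 and MPC2 were 198 and 31.6 CPM in shPTBP1 and 180 and 32.5 CPM in shSCR.

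PDHA1 and PDHB encode the alpha and beta subunits of the E1 enzyme, which carries out the first step of the pyruvate dehydrogenase complex. PDHA1 (ENSG00000131828, plus strand of chromosome X from 19343893 to 19361718) was at 164, 140, 157 and 134 CPM in shPTBP1 and at 140, 133, 145 and 124 CPM in shSCR. Its groups overlapped, with shPTBP1 replicates 1 and 3 above all shSCR libraries. The log2 fold change of PDHA1 was 0.14 (SE 0.09, interval -0.05 to 0.32, edgeR adjusted p = 0.429). PDHB (ENSG00000168291, minus strand of chromosome 3 from 58427630 to 58433857) was at 152, 160, 154 and 174 CPM in shPTBP1 and at 149, 164, 171 and 151 CPM in shSCR. Its log2 fold change was 0.01 with an interval from -0.15 to 0.18 (edgeR adjusted p = 0.960), so that PDHB was between 89.9% and 113% of its shSCR level. The ratio of PDHA1 to PDHB by level per kb was 0.421 ± 0.0629 and 0.384 ± 0.0262, and the groups overlapped. Its size depends on the division by 3349 bases for PDHA1 and 1507 bases for PDHB. Undivided, the means of PDHA1 and PDHB were 149 and 160 CPM in shPTBP1 and 135 and 159 CPM in shSCR.

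PDHA1 was the member with the most even spread of counts over isoforms, with 5 of them above 5%. PDHA1-205 and PDHA1-204 differ in where they end and by a cassette exon of 84 bases (chrX:19345736-19345819), coding in PDHA1-204. It is shown in capitals after the 40 bases of intron before it (together chrX:19345696-19345819, plus strand), because PTBP1 is known to act through pyrimidine-rich stretches near regulated exons:
PDHA1 cassette exon: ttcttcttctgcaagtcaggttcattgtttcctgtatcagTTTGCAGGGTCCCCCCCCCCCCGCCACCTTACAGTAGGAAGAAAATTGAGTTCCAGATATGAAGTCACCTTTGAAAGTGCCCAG
The intron window held 27 pyrimidines (67.5%), and 32.7% of 63595 windows of 40 bases before internal exons held at least as many. It held 2 overlapping copies of TCTT, which occurred in 48.8% of those windows, and no CTCTCT, which occurred in 5.28%. Inclusion of the cassette exon was 38.5%, 38.6%, 40.7% and 32.2% in shPTBP1 and 44.1%, 41.3%, 34.6% and 45.8% in shSCR. Although 3 of the 4 shSCR libraries lay above all shPTBP1 libraries, shSCR replicate 3 lay among the lower values and the groups overlapped, with means of 37.5% ± 3.66 and 41.5% ± 4.93. All counts for inclusion were those assigned to PDHA1-204, which ends at 19359839, while PDHA1-205 ends at 19361718. How far this other end decided the assignment was not tested. By isoform, PDHA1-205 held 34.2% ± 3.07 of the gene's counts in shPTBP1 and 31.4% ± 2.13 in shSCR, and PDHA1-204 held 27.5% ± 3.40 and 29.9% ± 3.88. PDHA1-209, a model that keeps 398 bases of intron, held 20.7% ± 2.54 and 21.9% ± 1.27. PDHA1-201, whose coding sequence is 21 bases longer than that of PDHA1-205, held 6.47% ± 2.30 and 7.70% ± 0.979, and PDHA1-202, also annotated with a retained intron, held 5.80% ± 0.985 and 6.16% ± 1.10. None of these shares passed diffSpliceDGE of edgeR (unadjusted p from 0.378 to 0.873). In PDHB the coding PDHB-201 held 90.1% ± 0.900 and 91.7% ± 0.975, and PDHB-203, which keeps an intron of 83 bases, held 6.21% ± 0.757 and 4.69% ± 1.72.

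GLO1 encodes glyoxalase 1, which joins methylglyoxal and glutathione to S-lactoylglutathione. GLO1 (ENSG00000124767) lies on the minus strand of chromosome 6 from 38675925 to 38703145, and 99.6% to 99.9% of its counts fell on GLO1-201. The 200 bases before its start (chr6:38703146-38703345, minus strand) are given for comparison with the LDHA windows above, and they held neither CACGTG nor TGTGGT:
GLO1-201: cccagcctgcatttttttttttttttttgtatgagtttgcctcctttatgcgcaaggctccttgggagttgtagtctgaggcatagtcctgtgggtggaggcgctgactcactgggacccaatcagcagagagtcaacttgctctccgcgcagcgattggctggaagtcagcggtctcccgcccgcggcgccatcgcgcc
GLO1 was at 1889, 1813, 1912 and 1780 CPM in shPTBP1 and at 2207, 2204, 2247 and 2165 CPM in shSCR. The 4 shSCR libraries lay close together, and the gap between the groups was wider than the range within either of them. The mean fell from 2205 ± 33.5 CPM to 1849 ± 62.1, or by 0.25 on the log2 scale (interval of the log2 fold change -0.36 to -0.15, SE 0.05, adjusted p = 0.00929 in edgeR). GLO1 was thus at 83.8% of its shSCR level, with an interval from 78.0% to 90.1%. It was called in all 16 alternative fits, with adjusted p values of 0.0118 to 0.0389 when a library was left out. The interval of the log2 fold change of GLO1 lies inside that of LDHA, and the ratio of LDHA to GLO1 by level per kb was 0.674 ± 0.0311 in shPTBP1 and 0.686 ± 0.0682 in shSCR, with overlapping groups.

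In all, 116 transcripts of the 10 genes are annotated, 72 had counts and 17, in 6 genes, could be tested for a change of share. No isoform was called by diffSpliceDGE of edgeR, with or without a minimum change of 10 percentage points, none had an unadjusted p under 0.05 (the smallest was 0.140, for BSG-204), and limma's diffSplice called none. Over all 5464 isoforms tested the test called 1.12% with that minimum and 1.78% without it. The changes of the mean share of the tested isoforms were 0.0104 to 4.01 percentage points in size, and LDHA-203 was the only one whose groups did not overlap. The share of counts on coding transcripts could be tested for 4 members, GLO1, LDHB, PDHA1 and PDHB. None was called in edgeR at an adjusted p under 0.05, beside 0.662% of the 906 genes tested. None of the 4 had an unadjusted p under 0.05. The 11 annotated pseudogenes of the members held 2 counts over all libraries.

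**Figure D3:**
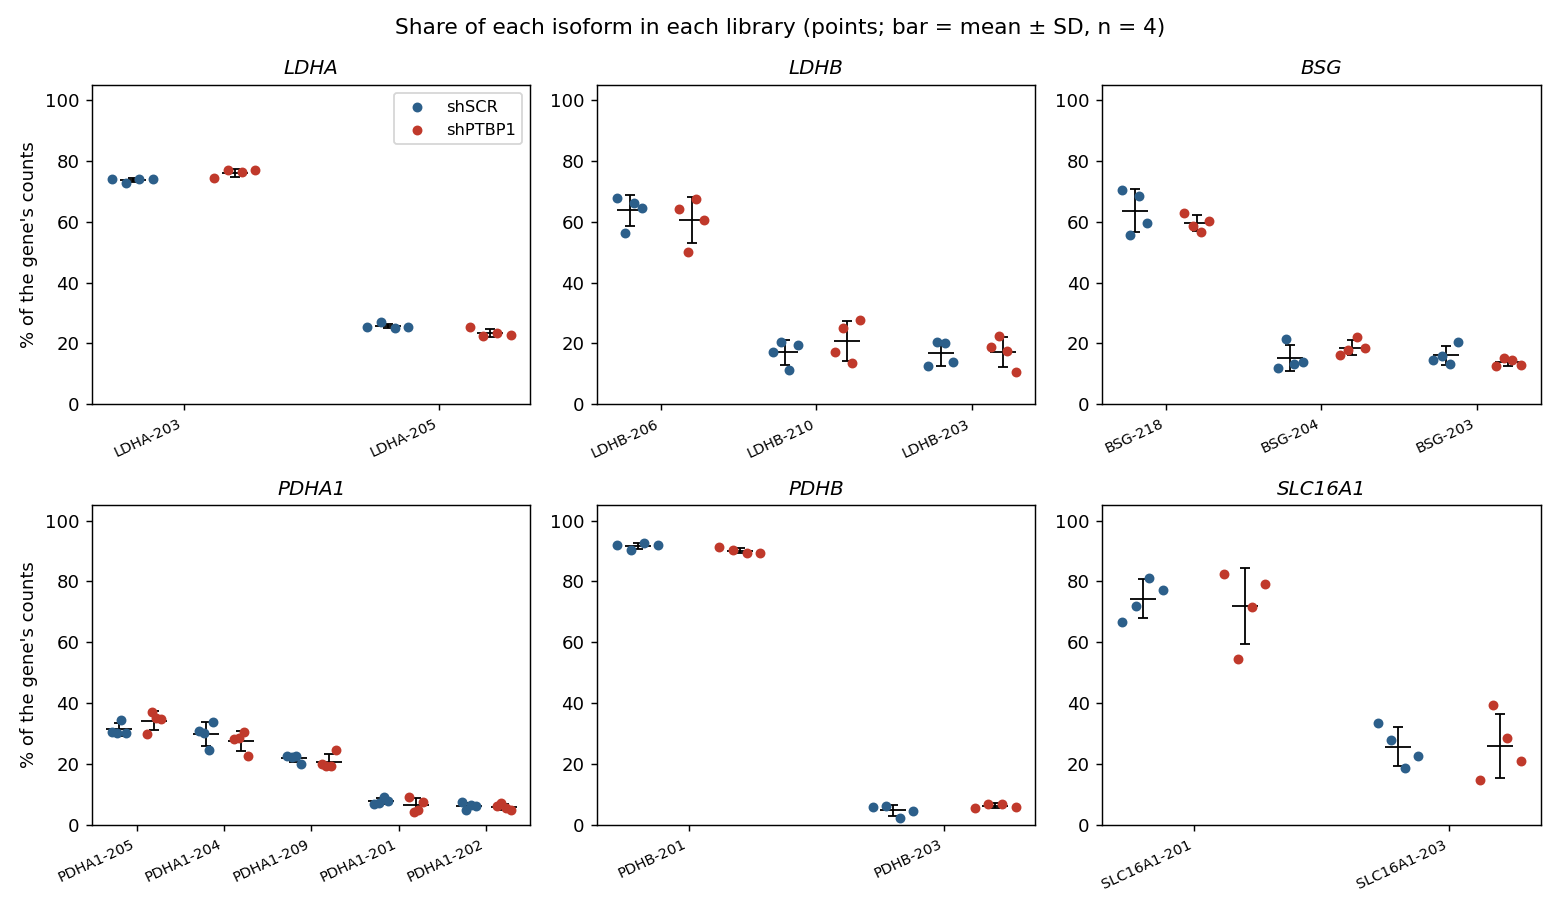
Share of the gene's counts (y axis, %) on each main isoform of LDHA, LDHB, BSG, PDHA1, PDHB and SLC16A1 in each library, with shSCR in blue, shPTBP1 in red and bars for the mean ± SD (n = 4). Only the points of LDHA-203 separate, with 72.7% to 74.0% in shSCR and 74.3% to 77.0% in shPTBP1, and the LDHB counts lie mostly on the retained-intron model LDHB-206.

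The plot of isoform shares shows how the 6 genes with more than a single main isoform divided their counts, and how wide the spread was at low counts in LDHB and SLC16A1.

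A further 38 genes of pyruvate and lactate handling were listed beside the 10, of which 19 could be tested and 12 had no count in any library (among them PKLR, the pyruvate kinase of liver and red cells, and LDHC, the lactate dehydrogenase of testis). Of the 19, PKM and PCK2 were called lower, none was called higher, and 17 did not pass, against a background of 3.19% and 2.36%. PKM, the pyruvate kinase that makes pyruvate in the last step of glycolysis, was at 1397, 1477, 1442 and 1390 CPM in shPTBP1 and at 2034, 2268, 2247 and 2245 CPM in shSCR. All shPTBP1 libraries were far below shSCR, with -0.62 as log2 fold change (SE 0.05) and an edgeR adjusted p of 2.20e-05. PCK2, the mitochondrial enzyme that makes phosphoenolpyruvate from oxaloacetate, was at 232, 221, 230 and 215 CPM in shPTBP1 and at 380, 375, 388 and 316 CPM in shSCR, also without overlap, with -0.70 as log2 fold change (SE 0.08) and an edgeR adjusted p of 0.000137. MDH2, the mitochondrial malate dehydrogenase, was the only other tested gene of this list whose groups did not overlap, at 115 ± 3.92 and 136 ± 8.22 CPM, and it did not pass the test (edgeR adjusted p = 0.0845).

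**Figure D4:**
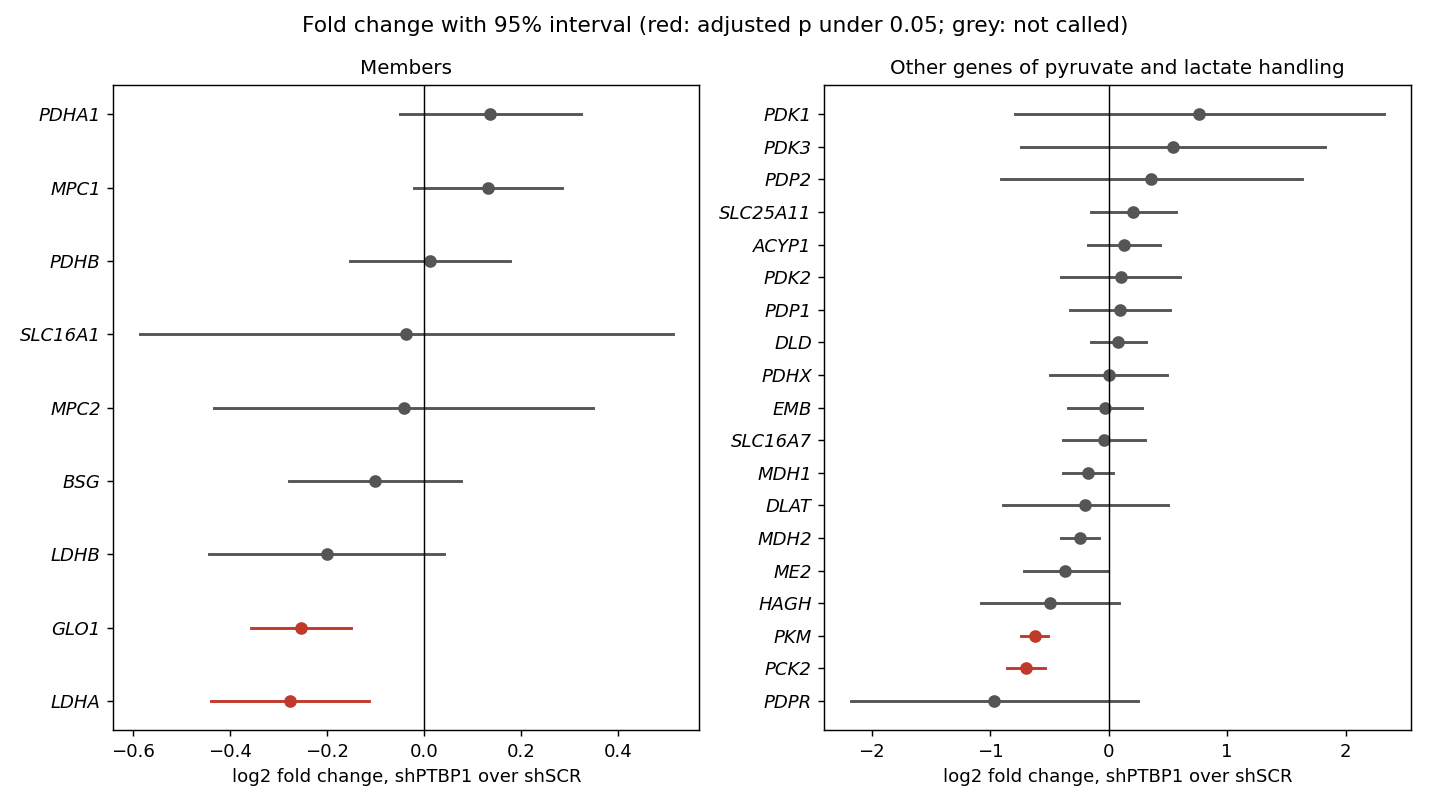
Log2 fold change of shPTBP1 over shSCR (x axis) with 95% intervals for the 9 tested members (left) and the 19 tested genes of the wider list (right, on another scale), in red where the edgeR adjusted p was under 0.05. LDHA (-0.28) and GLO1 (-0.25) are red on the left and PKM (-0.62) and PCK2 (-0.70) on the right, while the intervals of MPC1 and PDHA1 lie mostly above 0 and include it.

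The plot of fold changes sets the members beside their neighbours in metabolism. Of the other subunits of the pyruvate dehydrogenase complex, DLD (E3) was at 84.2 ± 8.94 and 79.6 ± 8.88 CPM in shPTBP1 and shSCR, DLAT (E2) at 7.87 ± 3.25 and 9.01 ± 1.36 CPM, and PDHX, which binds E3 to the core, at 14.0 ± 3.57 and 14.1 ± 1.53 CPM. Their log2 fold changes were 0.08, -0.20 and -0.000933, and none passed the test (edgeR adjusted p 0.740, 0.809 and 1.00). Of the kinases that switch the complex off, PDK1, PDK2 and PDK3 were tested and did not pass, nor did the phosphatase genes PDP1, PDP2 and PDPR. PDK4 had 2 counts in shSCR replicate 1 and 0 in the other libraries and was not tested. PDK3 was at 44.4, 43.1, 50.1 and 56.9 CPM in shPTBP1 and at 78.9, 2.52, 2.63 and 47.5 CPM in shSCR, so that shSCR held both its highest and its lowest values. PDK1 was listed at 0 in shPTBP1 replicate 3 and shSCR replicate 1 and reached 15.7 and 7.55 CPM elsewhere in these groups. PDK2 was at 16.6 ± 5.01 and 15.5 ± 2.52 CPM, the phosphatase PDP1 at 21.7 ± 4.62 and 20.4 ± 3.12 CPM, and PDP2 at 5.94 ± 2.34 and 4.65 ± 3.37 CPM. PDPR, the regulatory subunit of the phosphatase, was at 0, 6.53, 11.7 and 5.06 CPM in shPTBP1 and at 16.4, 6.92, 15.1 and 6.97 CPM in shSCR (log2 fold change -0.97, interval -2.18 to 0.24, edgeR adjusted p = 0.383).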

How the data were processed

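RNA of MOLM-13 cells was sequenced on a nanopore instrument after 9 days of dox, with 4 libraries each for shPTBP1 and shSCR. In the study's methods, minimap2 placed the reads on hg38, a limit of mapping quality was applied, and the authors then obtained the deposited counts per transcript from StringTie. Tool versions and the annotation release are not given in the sources used here. A second table, named as TPM, was deposited in CPM. The authors made it by dividing each transcript count by its library total, without division by length, as checked from the values.

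Transcripts were matched by Ensembl identifier to GENCODE version 44 (252562 of 254070 found) and summed per gene. Genes passing filterByExpr of edgeR 4.0.16 (minimum count 10) were compared by its quasi-likelihood test after TMM scaling, with group as the only term. SE values were derived from each gene's F statistic and its fitted change. P values were adjusted by Benjamini-Hochberg over all 7597 genes, with calls at an adjusted p under 0.05. Isoform shares were tested over all 5464 testable isoforms with diffSpliceDGE, and coding shares likewise on counts pooled per gene into coding and other transcripts. Ratios of counts carry exact 95% intervals, which like the limit of 3 counts for a count of 0 cover counting error only. Levels per kb divide the CPM of a gene by the length of its coding transcript with most counts. Sequences were read from hg38 with the GENCODE exons.

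Alternatives were DESeq2 1.42.0, limma 3.58.1 (voom, trend on log2 of CPM plus 1, and diffSplice), DESeq2 size factors in edgeR, no filter, a mean of at least 50 counts, for isoforms a mean of at least 10 counts and other minimum changes, thinning to the smallest library, the replicate number as a block, and leaving out each library. The labels do not say whether equal replicate numbers mark paired libraries, so pairing is not known. Deviations from the group means correlated between -0.0328 and 0.00889 for equal numbers, which cannot decide how the cells were handled. The labels call the libraries biological replicates, and p values measure the spread between them.

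Members, marker lists and the wider list of 38 genes were chosen with earlier results of these data known. Named were all members, their transcripts with a mean share of at least 5% in either group, every called gene of the wider list, and the tested genes of the pyruvate dehydrogenase complex, its kinases and phosphatases. BSG-201, MDH2, PKLR and LDHC were named after their values were seen. Scripts ran in R 4.3.3 and Python 3.11.15 and were tested on simulated data.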

Additional observations from a re-analysis of the deposited data

Results flagged for a closer look

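Of 90 groups of 4 values, 9 held a library so far from the other 3 that its gap to the nearest passed Dixon's 95% critical value, and chance gives about 1 in 20 such groups. Among the members, LDHB was at 40.0 CPM in shPTBP1 replicate 1, below the other 3 libraries at 48.1 to 49.6 CPM. LDHA-203 took 72.7% of the LDHA counts in shSCR replicate 2, against 73.9% to 74.0% in the others. PDHA1-205 took 34.5% in shSCR replicate 3, against 30.2% to 30.4%, and PDHA1-209 took 24.5% in shPTBP1 replicate 4, against 19.2% to 19.8%. GLO1-201 took 99.9% in shPTBP1 replicate 4 and 99.6% in each of the others. In the wider list, shSCR replicate 1 stood apart for PKM, at 2034 CPM against 2245 to 2268, for MDH2, at 149 CPM against 131 to 133, and for PDK1, listed at 0 against 6.34 to 7.55 CPM. PDP1 was at 15.7 CPM in shSCR replicate 2, against 21.5 to 22.4 CPM.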

How the results depend on the processing

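The number of members called lower, 2, was 1 under limma-voom and 1 with DESeq2's size factors in edgeR, where LDHA had adjusted p values of 0.0556 and 0.0509, and the cause was not tested. When a library was left out it ranged from 1 to 2, and the number of members whose groups did not overlap, 2, ranged from 2 to 4, with 4 without shSCR replicate 2. The number without overlap was 3 with a mean of at least 50 counts and 3 with limma-trend on CPM. Leaving out a library moved LDHA to log2 fold changes of -0.32 to -0.21 (adjusted p 0.0294 to 0.148) and GLO1 to -0.27 to -0.24. With the replicate number as a block (replicate block), 2 members were called lower, LDHA at -0.28 (adjusted p = 0.0487) and GLO1 at -0.26 (adjusted p = 0.0264), and no other call about members changed. Among members that were not called, PDHB turned to -0.00617 with a mean of at least 50 counts and to -0.0268 with limma-trend on CPM, and ranged from -0.0311 to 0.0494 when a library was left out. Over the same omissions MPC2 ranged from -0.20 to 0.0774 and SLC16A1 from -0.18 to 0.17, while BSG kept its direction between -0.16 and -0.04, LDHB between -0.24 and -0.13, MPC1 between 0.10 and 0.17 and PDHA1 between 0.09 and 0.18. No member or listed gene was called higher, no isoform or coding share was called, and 2 genes of the wider list were called lower in every alternative run. At 14 to 64 counts per library, SLC16A1 and MPC2 are limited by depth, and SLC16A3 could not be tested. SLC16A1 has no value for the mean of at least 50 counts, which it does not reach.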
